A study of Mus musculus with 9 samples.

Results

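The Serpina1 and Serpina3 paralogs were examined in mouse liver, as the 10 genes Serpina1a, Serpina1b, Serpina1c, Serpina1d, Serpina1e, Serpina3f, Serpina3g, Serpina3k, Serpina3m and Serpina3n. They were chosen by name from the 24326 genes with a level in every mouse, given in FPKM, read fragments scaled to the length of the transcript and to the mapped reads of the library. All 10 had a mean of at least 0.1 FPKM and were among the 13807 genes tested. The mRNA of whole liver was sequenced from the 3′ end of the transcripts. The livers came from 9 wild-type (WT) C57BL/6 mice, 48 h after treatment. The 3 anti-CD40 mice (numbers 2, 5 and 9) had received FGK45, an antibody that activates CD40. The 6 control mice (numbers 3, 4, 7, 8, 11 and 12) had received PBS. By the study's methods, mice were in general sex matched and 8 to 12 weeks old, and some anti-CD40 mice across its experiments were excluded because their B cells in blood had not decreased, so the anti-CD40 group may be limited to mice that responded in blood. Each sample was the liver of a separate mouse by its number, and the p-values below measure the spread between these mice.

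Serpins are protein inhibitors of proteases. Most of them hold out a flexible reactive centre loop as bait, and the protease that cuts the loop is trapped in a covalent complex, so the sequence of the loop largely sets which protease is caught. Serpina1 genes encode alpha-1 antitrypsin, a plasma protein made mainly by hepatocytes that inhibits neutrophil elastase, and Serpina3 genes encode relatives of alpha-1 antichymotrypsin, an acute phase protein. Both genes are single in humans but were duplicated in the mouse.

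The 10 genes lie on chromosome 12 of mm10, in the deposited loci. From low to high coordinates the Serpina1 genes are Serpina1b (chr12:103728156-103738189), Serpina1d (chr12:103763587-103773633), Serpina1a (chr12:103853295-103863619), Serpina1c (chr12:103894926-103904950) and Serpina1e (chr12:103946932-103956897), all on the minus strand. On the plus strand follow Serpina3f and Serpina3g, for which the table gives 1 shared locus (chr12:104214544-104241934), Serpina3k (chr12:104338486-104345739), Serpina3m (chr12:104387164-104394257) and Serpina3n (chr12:104406708-104414329). In the GENCODE vM21 annotation each Serpina1 gene has 413 codons in transcripts of 5 exons, and their coding sequences were 96.3% to 98.5% identical over the 10 pairs. The Serpina3 genes had diverged further, with 91.1% identity between Serpina3k and Serpina3m and 72.6% between Serpina3f and Serpina3k. The annotated Serpina3g transcript was shorter, with 248 codons against 418 in Serpina3k, Serpina3m and Serpina3n and 445 in Serpina3f.

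The part of each gene that codes for the reactive centre loop is shown because the loop meets the protease and the paralogs differ there. It comprises 24 codons (72 bases) of the last exon, from GENCODE vM21 transcripts, 5′ to 3′ on the coding strand. Capitals mark bases that vary among the 5 Serpina1 genes, 17 of 72. The loop of Serpina1a lies at chr12:103853759-103853830 and that of Serpina1d at chr12:103763764-103763835.
Serpina1a: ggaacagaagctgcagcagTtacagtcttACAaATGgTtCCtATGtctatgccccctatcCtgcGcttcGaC
Serpina1b: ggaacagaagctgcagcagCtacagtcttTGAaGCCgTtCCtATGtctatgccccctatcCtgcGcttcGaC
Serpina1c: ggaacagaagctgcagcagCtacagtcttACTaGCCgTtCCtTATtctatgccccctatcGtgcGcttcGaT
Serpina1d: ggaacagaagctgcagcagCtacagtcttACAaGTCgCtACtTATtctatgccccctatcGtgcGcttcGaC
Serpina1e: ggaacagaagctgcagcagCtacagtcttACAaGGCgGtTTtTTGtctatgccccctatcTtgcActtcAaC

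The opening bases of the loop were identical in the 5 Serpina1 genes apart from a single base in Serpina1a, and most of the differences fell in the middle. Serpina1c and Serpina1d differed from each other in 5 of the 72 bases, the fewest, and Serpina1e differed from each of the others in 9 to 11. For the 5 Serpina3 genes capitals mark the bases that vary among them, 47 of 72. The loop of Serpina3g lies at chr12:104241072-104241143 and that of Serpina3n at chr12:104413448-104413519.
Serpina3f: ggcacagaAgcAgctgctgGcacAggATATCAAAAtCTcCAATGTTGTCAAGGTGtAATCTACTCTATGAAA
Serpina3g: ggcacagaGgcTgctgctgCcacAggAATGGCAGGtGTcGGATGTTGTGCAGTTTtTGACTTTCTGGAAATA
Serpina3k: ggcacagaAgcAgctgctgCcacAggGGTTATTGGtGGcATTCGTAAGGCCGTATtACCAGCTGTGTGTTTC
Serpina3m: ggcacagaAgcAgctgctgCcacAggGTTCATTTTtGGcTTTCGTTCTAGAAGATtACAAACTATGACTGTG
Serpina3n: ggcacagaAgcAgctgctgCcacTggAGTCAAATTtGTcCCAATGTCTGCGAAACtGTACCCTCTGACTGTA

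Past a shared first stretch, the Serpina3 loops had little in common. Serpina3k and Serpina3m were the closest pair, with 20 different bases, and Serpina3f and Serpina3k the farthest apart, with 39. Every base of the last codons shown varied among the Serpina3 genes, whereas most bases of these codons were shared by the Serpina1 genes.

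Because the libraries read the 3′ end, the last 300 bases of each GENCODE vM21 transcript were compared, as a guide to how well the paralogs could be told apart. These ends are not always those of the deposited loci. The Serpina3k transcript ends at 104346144, so all its windows lie past its deposited end of 104345739. That of Serpina1a ends at 103853591 on the minus strand, short of the deposited 103853295, so its windows are not at the deposited end. Only genes whose names begin with Serpin or Gm were searched for shared windows. Of the 50-base windows, 56.6% in Serpina1a, 37.8% in Serpina1b, 15.9% in Serpina1c, 44.6% in Serpina1d and 18.3% in Serpina1e were identical to a window of another such gene. The partner of most shared Serpina1a windows was Gm8893, a pseudogene that has no row of its own in the table. With 75-base windows the shares were 29.6% in Serpina1a and between 1.33% and 8.41% in the other Serpina1 genes. In Serpina3f and Serpina3g 2.79% and 4.38% of the 50-base windows were shared, and in Serpina3k, Serpina3m and Serpina3n none of the 251 windows was. The read length is not given in the sources used here, and the aligner was allowed up to 14 mismatches, so reads may have been split between Serpina1 genes. The Serpina1 genes are therefore also given as their sum.

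The tissue label was checked against hepatocyte markers, all 12 of which were measured, and their summed level was 15399 to 17953 FPKM after anti-CD40, below the 41278 to 81943 FPKM of the control livers. No read totals are given, so absolute depth is unknown. The smallest steps between low values put the relative depth of the mice between 0.870 and 1.13. The acute phase genes Saa1, Saa2 and Saa3 took 25.4% to 25.9% of all FPKM after anti-CD40 but 0.0449% to 0.380% in controls, which bears on every value scaled to a library total. Leaving these genes out and rescaling the mice moved the median gene from a log2 fold change of 0.0056 to 0.35.

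After anti-CD40, 4 of the 5 Serpina1 genes fell and 3 of the 5 Serpina3 genes rose. Serpina1d fell the most, 4.13-fold, while Serpina3f and Serpina3g rose 7.42-fold and 7.24-fold and Serpina3n rose 4.54-fold. Serpina1e, Serpina3k and Serpina3m did not pass the test. Tests used limma on log2(FPKM + 0.1), a scale that understates the fold change of low genes, with Benjamini-Hochberg adjustment over all genes tested. A gene was called at an adjusted p under 0.05. In the whole liver 45.1% of the genes tested were called, 23.5% higher and 21.7% lower, against 7 of the 10 paralogs, 3 higher and 4 lower. In the same 7 genes the 2 groups did not overlap, which was so for 42.4% of all genes tested, 22.7% higher and 19.6% lower. The median log2 fold change was -1.53 over the 5 Serpina1 genes and 2.26 over the 5 Serpina3 genes, beside 0.0056 over all genes tested.

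**Figure D1:**
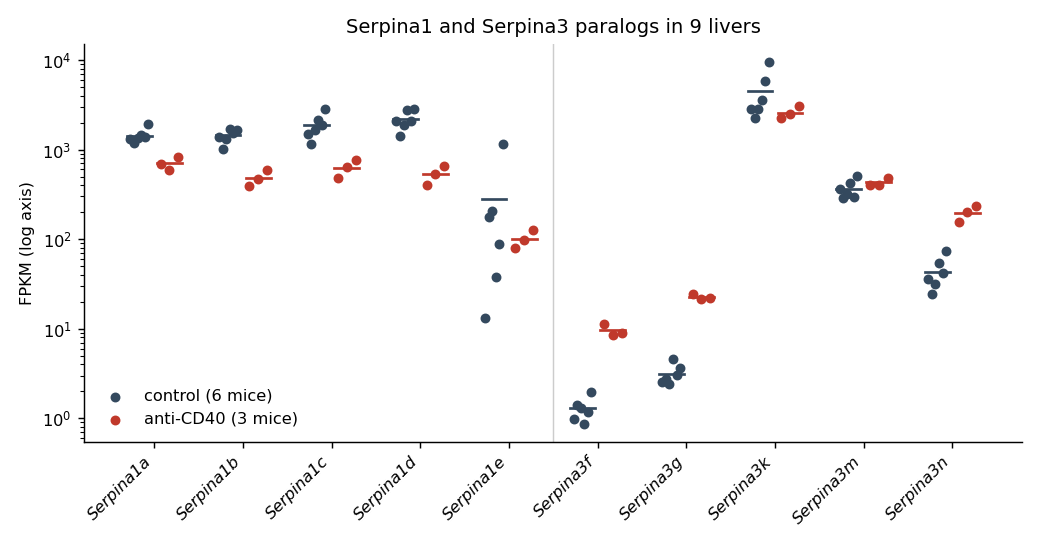
FPKM of the 10 paralogs in each liver, on a log axis, with control mice in blue and anti-CD40 mice in red. Points are mice and short lines are group means. Serpina1a to Serpina1d were lower in every anti-CD40 liver than in any control liver, Serpina3f, Serpina3g and Serpina3n were higher, and the control values of Serpina1e ran from 13.1 to 1164.

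Among the Serpina1 genes, Serpina1d was at 399, 531 and 654 FPKM in anti-CD40 mice 2, 5 and 9, and in the control mice it lay between 1399 and 2848 FPKM with a median of 2079.6. The highest anti-CD40 liver thus stayed well under the lowest control liver. The log2 fold change was -2.03 (SE 0.24, adjusted p = 7.09e-05, limma), and an exact permutation test with 84 possible splits gave p = 0.0238, the smallest it can give.

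Serpina1b was at 393, 466 and 597 FPKM after anti-CD40, against 1027 to 1713 FPKM with a median of 1461 in the control mice. Its groups were separated by a wide gap. Its log2 fold change was -1.57 (SE 0.19, adjusted p = 8.28e-05, limma).

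Serpina1c was at 480.0, 647 and 758 FPKM after anti-CD40 and at 1150 to 2831 FPKM, median 1763, in the control mice. Mouse 12 was the highest control liver and mouse 4 the lowest, and neither reached the anti-CD40 range. In log2 terms Serpina1c fell by 1.53 (SE 0.26, adjusted p = 8.12e-04, limma).

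Serpina1a, the gene with the largest share of 3′ windows in common with others, was at 697, 590.4 and 829 FPKM after anti-CD40 and at 1187 to 1921 FPKM, median 1362, in the control mice. The groups were separate, but the gap was the narrowest of the 4. The log2 fold change was -1.02 (SE 0.17, adjusted p = 6.47e-04, limma), and it ranged from -1.14 to -0.52 over 18 other settings. All 4 falls were called in each of these settings.

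Serpina1e was at 79.0, 97.8 and 127 FPKM in anti-CD40 mice 2, 5 and 9. In control mice 3, 4, 7, 8, 11 and 12 it was at 13.1, 176, 207, 37.7, 88.8 and 1164 FPKM. The anti-CD40 livers sat close together inside a control range that spanned 88.5-fold, with mouse 12 far above the rest. The log2 fold change of -0.16 (SE 1.11, 95% interval -2.61 to 2.30, adjusted p = 0.920, limma) leaves room for a large change in either direction, and its sign turned under 2 other scalings and without control mouse 12, when it was 0.52. On the log2 scale only 0.521% of the genes tested varied more between the control mice than Serpina1e.

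The summed FPKM of the 5 Serpina1 genes was 2048, 2332 and 2965 in the anti-CD40 mice, a mean of 2448 ± 469 (SD, n = 3), and 7191 ± 1896 (SD, n = 6) in the control mice, which ranged from 4940.1 to 10437. The sum was 2.94-fold lower after anti-CD40. It depends less than a single gene does on how reads were divided among these 5 genes, whose transcripts differ in length (1360 to 1575 bases), and it does not cover reads shared with Gm8893. In log2 the ratio of the sums was -1.55, and with quantile normalization or the Saa genes left out it was -1.10 or -1.17. In bulk liver, fewer hepatocytes and less Serpina1 mRNA per hepatocyte cannot be told apart. Of the 12 hepatocyte markers, 10 fell and 1 rose. Among them were albumin (Alb, log2 fold change -2.43, adjusted p = 3.62e-06, limma), the lipoprotein Apoa2 (-2.18), the fatty acid carrier Fabp1 (-2.05) and the thyroxine carrier Ttr (-1.96), while Apob, also a lipoprotein, rose by 0.74, a call lost without anti-CD40 mouse 5. The part of these markers in the fall of Serpina1 was not tested.

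Within the Serpina1 sum the listed shares shifted between Serpina1a and Serpina1d. Such shares depend on how reads were divided among these genes and Gm8893, which was not tested. Serpina1d made up 30.4% ± 2.8 (SD, n = 6) of the sum in the control mice and 21.4% ± 1.7 (SD, n = 3) after anti-CD40, and Serpina1a made up 20.3% ± 2.2 and 29.1% ± 4.5. The ranges of neither gene overlapped between the groups, with 27.3% to 34.3% against 19.5% to 22.8% for Serpina1d. The shares of Serpina1b (20.4% and 19.8%) and Serpina1c (25.6% in both) differed by less than the larger SD. The share of Serpina1e was 3.86% to 4.30% after anti-CD40, within the 0.209% to 11.2% of the control livers.

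**Figure D2:**
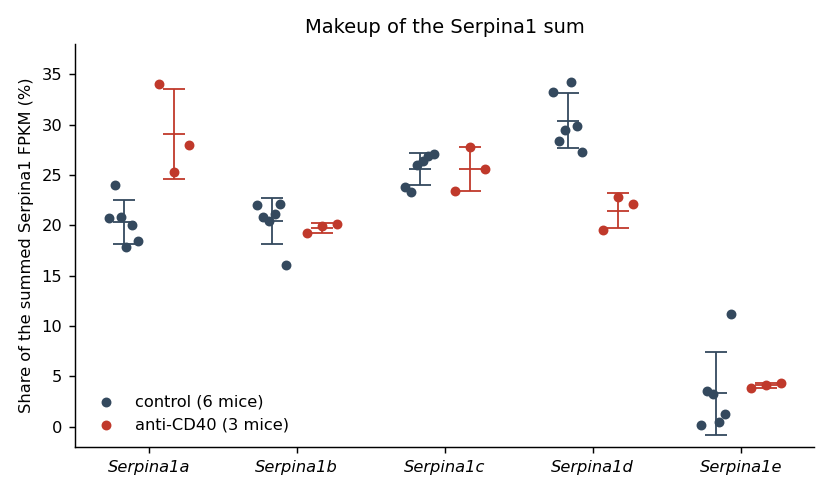
Share of each gene in the summed Serpina1 FPKM (%), for control mice in blue and anti-CD40 mice in red. Points are mice and bars are the mean ± SD. The mean share of Serpina1d was 30.4% in control and 21.4% in anti-CD40 mice and that of Serpina1a 20.3% and 29.1%, without overlap between the groups, while Serpina1b and Serpina1c overlapped.

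The Serpina3 genes differed more in level and in response. In the control mice Serpina3k was the highest of the 10 paralogs at 4481 ± 2758 FPKM, which is per transcript length although 3′ reads do not grow with length. Serpina1d followed at 2179.7 ± 553, Serpina1c at 1858 ± 582, Serpina1b at 1441 ± 256, Serpina1a at 1431 ± 256, Serpina3m at 365 ± 83, Serpina1e at 281 ± 439, Serpina3n at 43.5 ± 18.2, Serpina3g at 3.16 ± 0.84 and Serpina3f at 1.30 ± 0.39 FPKM (SD, n = 6). Neighbours from Serpina3k down to Serpina1a differed by less than the larger SD of the pair, and so did Serpina3m, Serpina1e and Serpina3n. The 3 genes that rose were the 3 lowest in the control mice.

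Serpina3g, which encodes an inhibitor of cysteine cathepsins that acts inside cells, was at 24.6, 21.7 and 22.2 FPKM after anti-CD40 and at 2.39 to 4.62 FPKM, median 2.89, in the control mice. The 3 anti-CD40 livers were nearly equal, and each lay far above every control liver. The log2 fold change was 2.85 (SE 0.20, adjusted p = 2.68e-06, limma).

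Serpina3f, its neighbour at the same deposited locus, was at 11.3, 8.57 and 8.97 FPKM after anti-CD40 and at 0.876 to 1.99 FPKM, median 1.25, in the control mice. Again no control liver came near the anti-CD40 range. Its rise in log2 was 2.83 (SE 0.23, adjusted p = 6.51e-06, limma).

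Serpina3n, a secreted inhibitor of granzyme B, was at 155, 202 and 235 FPKM after anti-CD40 and at 24.3 to 74.7 FPKM, median 38.6, in the control mice. Mouse 12 was the highest control liver, still under every anti-CD40 liver. In log2 terms Serpina3n rose by 2.26 (SE 0.31, adjusted p = 2.06e-04, limma). In all 18 other settings these 3 rises were called.

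Serpina3k, also called contrapsin, an inhibitor of trypsin-like proteases in plasma, was at 2272, 2470.1 and 3027 FPKM after anti-CD40. In control mice 3, 4, 7, 8, 11 and 12 it was at 2854, 2254, 2852, 3566, 5887 and 9476 FPKM. Control mice 3 and 7 lay inside the anti-CD40 range, mouse 4 just under it, and mice 8, 11 and 12 above it. Its change in log2 was -0.61 (SE 0.40, 95% interval -1.51 to 0.29, adjusted p = 0.245, limma).

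Serpina3m was at 399, 403 and 487 FPKM after anti-CD40 and at 288 to 502 FPKM, median 341, in the control mice. The anti-CD40 livers lay in the upper part of the control range. The log2 fold change was 0.26 (SE 0.18, 95% interval -0.15 to 0.66, adjusted p = 0.281, limma). This call depended on scaling. With quantile normalization the change was 0.72 (adjusted p = 0.00450, limma), 0.81 above the median of all genes. With the Saa genes left out it was 0.62 (adjusted p = 0.00813, limma), 0.27 above the median in that setting.

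The Serpina3 sum was 3249 ± 476 FPKM (SD, n = 3) after anti-CD40 and 4895 ± 2832 FPKM (SD, n = 6) in the control mice, and it was mostly Serpina3k. The groups overlapped, with control livers between 2570.5 and 10057 FPKM. Its makeup did not overlap between the groups. Serpina3k was 90.2% ± 3.3 of the sum in the control mice and 79.7% ± 0.4 after anti-CD40, while the share of Serpina3n was 0.958% ± 0.238 and 6.05% ± 0.55. That of Serpina3m was 8.75% ± 3.03 and 13.3% ± 0.6, and Serpina3g and Serpina3f together stayed under 2% of the sum in every liver.

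Whether paralogs responded differently was tested on their log2 ratio within each mouse, which scaling to a total does not touch. The ratios of Serpina1 genes still depend on how reads were divided among them, which was not tested. Of the 20 pairs within the families, 11 differed between the groups (exact permutation p = 0.0238, the smallest possible, adjusted p = 0.0433 over the 20 pairs, Benjamini-Hochberg). All 11 tied at this smallest p, so the adjusted p of each rests on the number that tied. The pairs reuse the same genes, so they are not 11 separate differences. The share of other gene pairs that would pass was not computed. With any single mouse left out, 0 of the 20 pairs passed, with fewer splits behind the test. Among the Serpina1 genes, Serpina1d lost ground to Serpina1a by 1.02 (SE 0.19), to Serpina1c by 0.50 (SE 0.10) and to Serpina1b by 0.46 (SE 0.09) on the log2 scale. Serpina1a also gained on Serpina1b, by 0.55 (SE 0.15). The gain of Serpina1a on Serpina1c, 0.52 (SE 0.19), did not pass (exact permutation p = 0.0476, adjusted p = 0.0794). Serpina1b and Serpina1c kept their ratio to within -0.04 (SE 0.14, exact permutation p = 0.762), and no pair with Serpina1e passed.

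Among the Serpina3 genes, the ratios of Serpina3f and Serpina3g to Serpina3k rose by 3.44 (SE 0.42) and 3.46 (SE 0.43) on the log2 scale, and those to Serpina3m by 2.58 (SE 0.29) and 2.60 (SE 0.18). Relative to Serpina3n, Serpina3k fell by 2.87 (SE 0.25) and Serpina3m fell by 2.00 (SE 0.21). All 6 of these differences passed. Serpina3k, although its own change was not called, fell relative to Serpina3m by 0.87 (SE 0.38), with control mice 11 and 12 apart from the other controls. In those mice Serpina3m made up 4.79% and 4.99% of the Serpina3 sum. Its share was 9.92% to 11.2% in the other control mice and 12.9% to 13.9% after anti-CD40. Serpina3f and Serpina3g, which have a shared deposited locus, differed in response by -0.02 (SE 0.34, exact permutation p = 0.810). That SE leaves room for a difference, and how reads were divided between them was not tested. The ratios of Serpina3f and Serpina3g to Serpina3n changed by 0.58 (SE 0.41) and 0.60 (SE 0.28), which did not pass (adjusted p = 0.306 and 0.110, exact permutation).

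**Figure D3:**
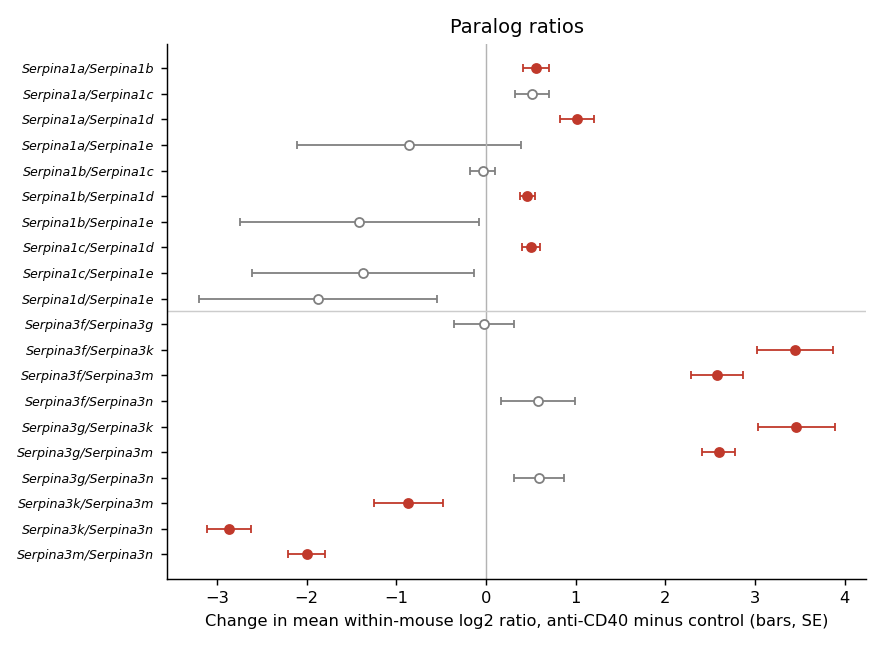
Change in the mean within-mouse log2 ratio between paralogs, anti-CD40 minus control, for the 10 Serpina1 pairs (top) and the 10 Serpina3 pairs (bottom). Bars are the SE, and filled red points are the 11 pairs with an adjusted p under 0.05. The pairs of Serpina3f, Serpina3g or Serpina3n with Serpina3k or Serpina3m moved most, with Serpina3g to Serpina3k at 3.46.

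Promoters are shown for the gene that fell most and the 3 that rose, as the 250 bases before the RefSeq start (GRCm38.p6, the build of mm10), 5′ to 3′ on the coding strand. RefSeq entries were matched for 8 of the 10 genes, not for Serpina3k and Serpina3m. Both strands were searched for TTCNNNGAA (STAT), TTNNGNAA (CEBP), GGGA and CC with 4 bases between them (kappaB), and TTTC at either side of 2 bases (interferon response), and capitals mark matches. The windows are chr12:103773634-103773883 on the minus strand, and chr12:104214294-104214543, chr12:104235897-104236146 and chr12:104406458-104406707 on the plus strand.
Serpina1d: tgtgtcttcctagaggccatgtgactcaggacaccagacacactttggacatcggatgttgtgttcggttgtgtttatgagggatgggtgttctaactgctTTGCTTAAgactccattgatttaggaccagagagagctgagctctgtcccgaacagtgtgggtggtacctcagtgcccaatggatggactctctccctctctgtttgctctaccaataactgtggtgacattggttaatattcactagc
Serpina3f: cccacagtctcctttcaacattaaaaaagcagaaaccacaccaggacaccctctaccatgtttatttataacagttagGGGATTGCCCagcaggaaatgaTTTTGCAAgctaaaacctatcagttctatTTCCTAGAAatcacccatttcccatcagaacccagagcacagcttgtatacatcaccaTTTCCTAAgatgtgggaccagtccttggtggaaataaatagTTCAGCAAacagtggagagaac
Serpina3g: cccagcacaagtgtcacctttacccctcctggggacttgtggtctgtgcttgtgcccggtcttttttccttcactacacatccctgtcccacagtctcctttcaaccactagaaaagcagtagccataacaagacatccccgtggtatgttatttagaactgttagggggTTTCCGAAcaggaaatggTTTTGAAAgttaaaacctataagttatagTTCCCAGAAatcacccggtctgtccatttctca
Serpina3n: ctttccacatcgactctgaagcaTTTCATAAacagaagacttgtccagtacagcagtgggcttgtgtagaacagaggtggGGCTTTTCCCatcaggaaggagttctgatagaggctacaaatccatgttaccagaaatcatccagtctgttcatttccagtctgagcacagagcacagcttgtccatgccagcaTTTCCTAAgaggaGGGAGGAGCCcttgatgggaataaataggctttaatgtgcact

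The STAT letters, present in 7.02% of 32851 promoters of this length, were found in Serpina3f and Serpina3g, and not in this window of Serpina3n. The kappaB letters, in 17.6%, matched at 2 places in Serpina3n and 1 in the window shown for Serpina3f, and the CEBP letters, in 36.8%, matched in Serpina3f, Serpina3g, Serpina3n and 3 of the Serpina1 promoters. Serpina3f has a second RefSeq start, whose window (chr12:104214383-104214632) holds the STAT and CEBP letters but no kappaB match. In none of the 8 genes was the interferon response motif found, which 2.98% of promoters hold.

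Along the chromosome the change in expression did not follow a single direction. The 4 Serpina1 genes that fell lay side by side, with Serpina1e beyond them, and Serpina3f, Serpina3g and Serpina3n were separated by the uncalled Serpina3k and Serpina3m. Of 9 other clade A serpins tested, 5 rose and 1 fell. Serpina6, which encodes the glucocorticoid carrier of plasma and lies on the outer side of Serpina1b, fell (log2 fold change -4.52, adjusted p = 1.31e-08, limma). Serpina12 (4.09) and Serpina5 (2.97), between the families, and Serpina3i (3.89), just past Serpina3g, rose, as did Serpina10 (0.94) at the edge of the cluster and Serpina7 (3.11) on chromosome X. Serpina3h (2.04), chosen after its values were seen, also rose. Serpina5 and Serpina3i were low, with control means of 0.034 and 0.039 FPKM and anti-CD40 means of 0.93 and 1.95 FPKM. Of the other clade A serpins, 3 were called higher when a mean of at least 1 FPKM was required.

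**Figure D4:**
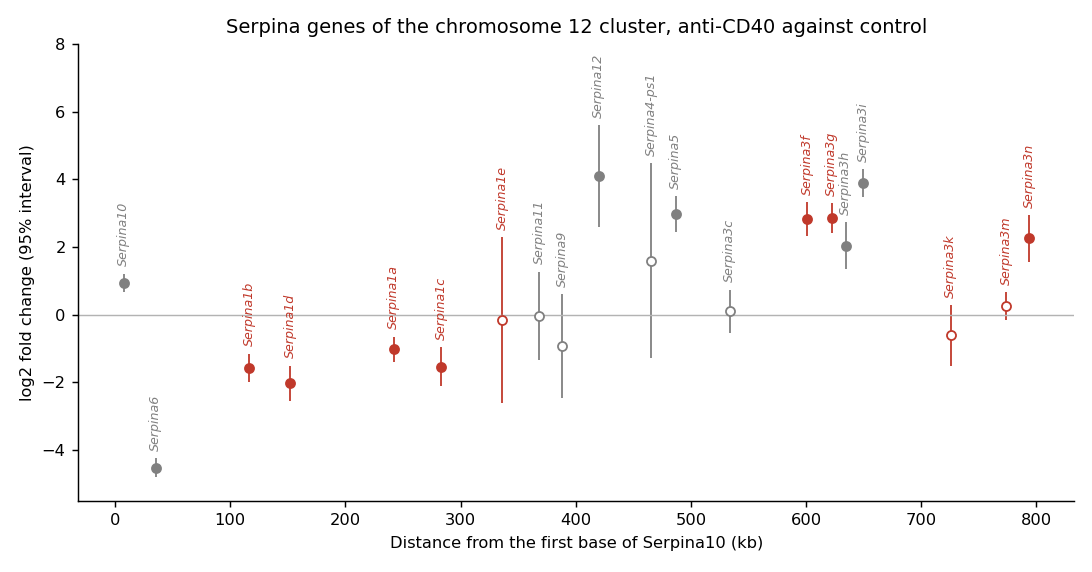
Log2 fold change (anti-CD40 minus control, with 95% interval) of the Serpina genes tested on chromosome 12, by distance from the first base of Serpina10 in kb. The 10 paralogs are red and other genes grey, and filled points have an adjusted p under 0.05. The whole intervals of Serpina1a to Serpina1d lie below 0 and those of Serpina3f, Serpina3g and Serpina3n above it, with Serpina6 at -4.52 at the left. Serpina1e, an open point at -0.16, has an interval that spans 0.

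Other genes whose level over the 9 mice was most like a paralog are given as a description, by Pearson's r of log2(FPKM + 0.1). The points share their 9 libraries and the step between the groups. Serpina3n was most like Lbp (r = 0.996), which encodes the lipopolysaccharide binding protein of plasma, and Serpina3g most like Orm2 (r = 0.997), an acute phase glycoprotein. Serpina3f was most like Cdc6 (r = 0.998), a DNA replication factor, and Cd37 (r = 0.996), a leukocyte surface protein. Serpina1b was most like Grb7 (r = 0.996) and Apoh (r = 0.995), Serpina1d like H2-Ke6 (r = 0.996), Serpina1c like Slc29a1 (r = 0.992) and Serpina1a like Stoml2 (r = 0.991).

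Proteases, listed by class and not by whether these serpins inhibit them, moved in both directions. Of 10 leukocyte granule serine proteases tested, 7 rose and none fell. They included granzyme B (Gzmb, log2 fold change 3.23, adjusted p = 3.28e-05, limma), a target of Serpina3n, and Gzmc (4.63), Gzma (4.47) and proteinase 3 (Prtn3, 2.69). With a mean of at least 1 FPKM required, 3 of these granule proteases were called higher. Elane, the elastase that alpha-1 antitrypsin inhibits, was below the level tested. Which of the mouse Serpina1 genes inhibit it was not examined. Of 9 cysteine cathepsins, the kind of protease Serpina3g inhibits, 4 rose, among them Ctss (1.52), Ctsz (1.07) and Ctsc (0.87), and 2 fell, with Ctsf at -1.58, of which 1 was called with quantile normalization or the Saa genes left out. Of 15 plasma serine proteases 9 fell, among them Hgfac (-1.83), Proc (-1.60), Masp2 (-1.38) and Klkb1 (-1.12), and 3 rose, F11, C1ra and C1s1.

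Serpins of other clades were likewise mixed. Of 9 secreted ones 3 rose, among them Serpini1 at 1.68 and the complement inhibitor Serping1 at 0.83, and 3 fell, with Serpinf1 at -2.55 and Serpind1 at -0.93. Of 9 clade B serpins tested, which mostly act inside cells, 6 rose, among them Serpinb10 (2.27), Serpinb2 (2.26), Serpinb9b (2.21) and Serpinb6b (1.94), while Serpinb1a was at -0.99 with overlapping groups, a call lost under no filter, with the Saa genes left out and when any of the 3 anti-CD40 mice was omitted. Under quantile normalization or without control mouse 11, 2 were called lower. With a mean of at least 1 FPKM required, 2 clade B serpins were called higher.

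Of 15 genes of acute phase signalling, the route through which IL-6 and IL-1 reach liver genes, 10 rose and 2 fell, with Socs3 at 2.50, Osmr at 2.09, Il1r1 at 1.63 and Il1rap at -1.13. Neither fall was called with the Saa genes left out, and leaving out any of the 3 anti-CD40 mice left 1 called. Of 8 genes of growth hormone signalling 5 fell and none rose, with Prlr at -2.48, Igfals at -2.42, Ghr at -1.68 and Igf1 at -1.01. Of 10 liver-enriched transcription factors 3 fell, with Cebpa at -1.49, and none rose, though 1 was called higher with quantile normalization or the Saa genes left out. None of 15 genes that handle secreted cargo was called, with 3 at an unadjusted p under 0.05 from limma, but 6 were called higher with quantile normalization and 7 with the Saa genes left out.

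Markers of other cells moved in both directions. Neutrophil markers rose in 9 of 9 tested, with a summed level of 4220 to 5207 FPKM after anti-CD40 and 18.4 to 156 FPKM in the control mice. Monocyte and macrophage markers rose in 6 of 8 and fell in 1, or 2 under quantile normalization or without control mouse 3 (316 to 433 against 45.8 to 79.9 FPKM). T and NK cell markers rose in 8 of 9 (17.9 to 23.2 against 4.34 to 7.38 FPKM). Of this list 5 were called under quantile normalization, no filter, or without anti-CD40 mouse 9 or control mouse 3 or 11. With a mean of at least 1 FPKM required, 4 of them were called. B cell markers rose in 4 of 4 (24.3 to 34.7 against 1.59 to 6.54 FPKM). Kupffer cell markers fell in 6 of 6 (39.3 to 48.6 against 271 to 430.0 FPKM). Endothelial markers rose in 1 and fell in 3 of 6 (64.0 to 70.9 against 78.4 to 105 FPKM), with only 1 called lower under no filter, with the Saa genes left out, or without anti-CD40 mouse 2 or control mouse 3 or 11. The endothelial rise was lost without anti-CD40 mouse 5 or 9, and 2 were called higher with the Saa genes left out or without control mouse 4. No erythroid marker of 4 was called, and none had an unadjusted p under 0.05 (limma), but 2 were called lower without anti-CD40 mouse 2. Of 10 pancreatic acinar markers 1 was called higher, Cpb1, which was at 178 FPKM in anti-CD40 mouse 5 alone and at 0.350 and 1.28 FPKM in mice 2 and 9, against at most 0.225 FPKM in the control mice. The summed acinar level was 1060.3 FPKM in anti-CD40 mouse 5, 27.9 and 33.3 FPKM in mice 2 and 9, and 70.5 to 190.3 FPKM in the control mice. All 7 called paralogs were called without mouse 5 as well. The acinar count called higher was 0 with a pseudocount of 1 or no filter, 3 with a pseudocount of 0.01 or the Saa genes left out, and 7 without anti-CD40 mouse 2. Neutrophil and B cell markers, and most monocyte and macrophage and T and NK cell markers, rose as Serpina3f, Serpina3g and Serpina3n did. Kupffer cell markers fell. The part of any of these markers in the rise of the 3 genes was not tested.

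Control mouse 12 had the highest level among control mice in 8 of the 10 paralogs, all but Serpina1b and Serpina3g, for which mouse 8 was highest. Control mouse 4 was the lowest in 7 of them. Some but not all neighbouring serpins outside both families also peaked in mouse 12. Serpina6, for example, was highest in control mouse 7, at 94.7 FPKM against 85.9 FPKM in mouse 12. Serpina4-ps1, a pseudogene, was at 37.1 FPKM there and 18.3 FPKM in mouse 11, against 0.411 to 1.93 FPKM in the other control mice, and Serpina11 was at 113 FPKM against 16.4 to 36.9 FPKM. In mice 11 and 12 Serpina3k was likewise the highest. Serpina1e did not share the second place of mouse 11, since mice 4 and 7 lay above it.

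**Figure D5:**
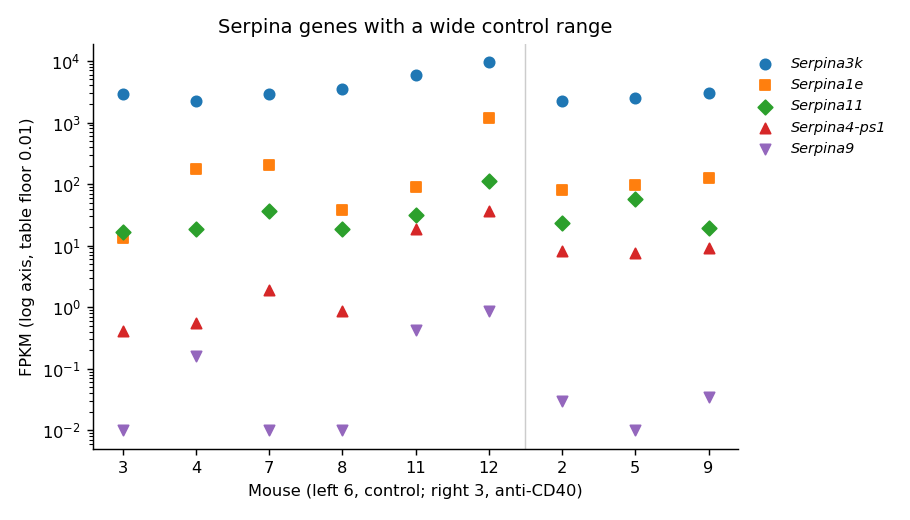
FPKM of Serpina3k, Serpina1e and 3 neighbouring genes in each mouse, on a log axis whose lowest points are the table floor of 0.01. Mouse 12 was the highest control mouse for all 5 genes, and mouse 11 was second for Serpina3k, Serpina4-ps1 and Serpina9 but not for Serpina1e.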

How the data were processed

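Total RNA of 9 livers was made into QuantSeq 3′ FWD libraries and sequenced on an Illumina instrument. STAR alignment to mm10 allowed up to 14 mismatches. The authors deposited FPKM values made with Cufflinks and CuffDiff for 24341 genes, with a floor of 0.01. The annotation, library scaling and filter behind the table are not given in the sources used here. Depth is not given, so no interval needing read totals was computed. Here the 15 genes with a failed estimate were left out. Genes with a mean of at least 0.1 FPKM (13807) were tested with limma 3.58.1 in R 4.3.3 (lmFit, eBayes with trend) on log2(FPKM + 0.1), 2-sided, with treatment as the only factor. A count test was not run. For paralog ratios, exact permutation tests (2-sided) used all 84 splits of the mice. The test was checked on simulated data, drawn independently per gene, with far fewer changed genes than were called here. The simulation held no shift like that of the Saa genes, so it cannot show how the test behaves under such a shift.

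The paralogs and all gene lists were chosen with earlier results of these data known. Every paralog was named, as were up to 4 called genes per list with the largest change and the genes most like a called paralog over the 9 mice. Some genes that this rule takes are not reported here. Reactive centre loops and transcript ends were read from GENCODE vM21, and promoters from RefSeq (GRCm38.p6). Alternatives were pseudocounts of 1 and 0.01, other filters, scalings, spread models and thresholds, and leaving out each mouse. Python 3.11.15, pandas 2.3.3 and Biopython 1.88 did the remaining steps.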

Additional observations from a re-analysis of the deposited data

Results flagged for a closer look

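In the control mice, 2 of the 10 paralogs had a highest FPKM that stood apart from the other 5. For Serpina1e the gap between mouse 12 and the next mouse was 0.832 of the whole control range in FPKM, and for Serpina1a it was 0.643. Both were above Dixon's critical value for 6 samples at the 95% level, which assumes normally spread values. The gaps were taken on FPKM and not on log2, the scale of the tests above, where a high value stands out less. Serpina1e was at 1164 FPKM in mouse 12 and 207 FPKM in mouse 7, the next highest, and Serpina1a at 1921 FPKM in mouse 12 and 1449 FPKM in mouse 8. Among the 12 sets of control values checked (the 10 paralogs and both sums), chance gives about 0.6 such flags if values are normally spread. The sums contain the paralogs, so the sets are not separate. Without mouse 12 the log2 fold change of Serpina1e was 0.52 in place of -0.16, not called in either case, and the fall of Serpina1a was called with and without it.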

How the results depend on the processing

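The 3 rises and 4 falls among the paralogs were called under each of the 18 alternatives, with the same sign. The other results were less firm. The log2 fold change of Serpina1e turned from -0.16 to 0.20 (quantile normalization), 0.21 (Saa1, Saa2 and Saa3 left out), 0.0075 (without anti-CD40 mouse 2), 0.020 (without control mouse 7) and 0.52 (without control mouse 12), and leaving out single mice gave -0.77 to 0.52. It was never called. Serpina3m was called at 0.72 with quantile normalization and 0.62 with the Saa genes left out. The log2 ratio of the Serpina1 sums, -1.55, became -1.10 and -1.17 under the same scalings. The count of 11 paralog pairs whose within-mouse log2 ratio differs between the groups went to 0 whichever mouse was left out, from 0 to 0, as the smallest p that remains is 0.0714 without an anti-CD40 mouse, which cannot pass, and 0.0357 without a control mouse, which too few pairs reached to pass after adjustment. Over all genes, the share of calls that were higher was 52.0%, but 46.4% with quantile normalization and 77.4% with the Saa genes left out. Of 684 recomputed counts for the gene lists, 636 stayed within 1.5 times the first count. No paired analysis was possible because the groups share no mouse numbers. The floor of 0.01 FPKM and the unknown depth limit genes near it more than the paralogs, and the split of reads between Serpina1 genes was not tested.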

Other observations

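The wide control range of the serpins extended to genes outside the family. Slco1a1, a bile acid and steroid carrier, was at 32.8 FPKM in control mouse 12 and 23.2 FPKM in mouse 11, against 2.96 to 16.1 FPKM in the other control mice. Hsd3b5, a steroid dehydrogenase of mouse liver, was at 6.45 and 3.43 FPKM in the same 2 mice and at 0.0691 to 1.41 FPKM in the others, and it was listed at 0.01 in all 3 anti-CD40 mice. Igf1 was highest in mice 12 and 11 as well (198 and 171 FPKM), whereas Ghr was highest in mouse 7. These genes were chosen after their values were seen. In all 9 livers Xist was at 2.23 to 3.82 FPKM and 4 Y-linked genes were at the floor of 0.01.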
